A study of Mus musculus with 8 samples.

Results

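The calnexin and calreticulin cycle with its glycan-trimming enzymes was examined in DN3 thymocytes, the third stage of thymocytes without CD4 and CD8. Its 9 genes, Canx, Calr, Mlec, Mogs, Ganab, Prkcsh, Uggt1, Uggt2 and Man1b1, were chosen by name for their known roles in the cycle, out of 16538 genes in the table. This choice, and that of the gene lists further below, was made with earlier results of these data known. RNA was sequenced from sorted DN3 thymocytes of C57BL/6 mice aged 6 weeks, with 4 control libraries of the genotype Sel1l-f/f and 4 Sel1l CKO libraries of the genotype Sel1l-f/f hCD2cre+. Both genotypes carried floxed Sel1l alleles, and the labels give the control mice no Cre, so the genotypes also differed in the hCD2-iCre transgene itself, whose recombinase activity starts in early thymic progenitors and is not limited to the DN3 stage. SEL1L is the adaptor of the HRD1 ubiquitin ligase in endoplasmic reticulum (ER)-associated degradation (ERAD), and the comparison asked how its loss changed the transcripts of DN3 thymocytes. The study's methods describe replicates as biologically independent, and the labels do not tie a library to an animal.

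N-linked glycoproteins enter the ER with a glycan that ends in glucose residues. Glucosidases trim these residues, the lectin chaperones calnexin and calreticulin hold the protein while its glycan carries a single glucose, and a glucosyltransferase adds glucose back to proteins that are not yet folded, which returns them to the chaperones. Removal of mannose residues ends the cycle and marks a protein that fails to fold for ERAD, and thymocytes use this system for the many surface glycoproteins they make, T cell receptor chains included.

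The promoters of the 4 genes of the cycle that passed the test are shown first, because 2 of them hold the ER stress response element (ERSE), a motif bound by ATF6 and XBP1 together with NF-Y. RefSeq promoter sequences were found for all 9 genes (build GRCm38.p6, 300 bases each, from 250 before to 50 after the RefSeq start of the gene). That start can differ from the end of the GENCODE gene given with each gene below: it was the same base for Canx, 3 bases further into the gene for Calr and Mlec and 418 bases further in for Uggt1, so the window of Uggt1 lies inside its GENCODE gene. The 250 bases before the RefSeq start are printed from 5′ to 3′ on the strand of the gene, and capitals mark the ERSE. They lie on the minus strand, at chr11:50325674-50325923 for Canx, chr8:84846932-84847181 for Calr, chr5:115158177-115158426 for Mlec and chr1:36244303-36244552 for Uggt1.
Canx: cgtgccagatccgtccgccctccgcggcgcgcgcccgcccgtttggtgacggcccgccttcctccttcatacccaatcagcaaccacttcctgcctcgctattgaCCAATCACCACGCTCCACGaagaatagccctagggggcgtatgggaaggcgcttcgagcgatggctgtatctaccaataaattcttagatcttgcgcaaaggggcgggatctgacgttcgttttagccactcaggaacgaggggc
Calr: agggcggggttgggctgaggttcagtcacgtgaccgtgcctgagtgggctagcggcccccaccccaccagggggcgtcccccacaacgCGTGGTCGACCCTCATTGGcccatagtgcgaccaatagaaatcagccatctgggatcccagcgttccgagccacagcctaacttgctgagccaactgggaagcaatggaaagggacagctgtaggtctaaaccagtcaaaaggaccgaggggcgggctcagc
Mlec: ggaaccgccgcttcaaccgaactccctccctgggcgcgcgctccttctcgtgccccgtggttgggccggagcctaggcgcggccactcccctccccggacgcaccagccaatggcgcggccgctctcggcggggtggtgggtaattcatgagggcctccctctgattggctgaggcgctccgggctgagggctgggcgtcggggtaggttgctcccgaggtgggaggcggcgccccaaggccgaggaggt
Uggt1: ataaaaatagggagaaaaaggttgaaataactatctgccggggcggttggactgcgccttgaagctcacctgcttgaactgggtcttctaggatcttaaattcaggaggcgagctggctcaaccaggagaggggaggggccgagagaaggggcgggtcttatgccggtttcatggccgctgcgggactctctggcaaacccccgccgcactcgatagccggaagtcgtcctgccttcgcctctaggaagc

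The ERSE was searched on both strands as CCAAT, then 9 bases of any kind, then CCACG. Canx held it in the direction of the gene, from -145 to -127 relative to the RefSeq start, and Calr held it on the opposite strand, from -162 to -144. The other 7 genes had no match. Among them, the RefSeq start lay 405 bases into the GENCODE gene for Man1b1 and 182 bases in for Prkcsh. The windows of Man1b1 and Uggt1 therefore do not cover the bases before the GENCODE start, and that of Prkcsh covers few of them. Of all 32851 RefSeq promoters of this length, 39 (0.119%) held an ERSE. Matches to ERSE-II (ATTGG, 1 base of any kind, CCACG), to the UPR element core TGACGTGG and to the ATF4 motif TTGCATCA were found in none of the 9 promoters, and in 0.0365%, 0.676% and 0.895% of all promoters, respectively. A match describes letters in this window and was not measured as binding.

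Sel1l was lower in each Sel1l CKO library than in each control library. Control replicates 1 to 4 had 1.83, 1.66, 1.61 and 1.57 RPKM (reads divided by gene length and by the library total). Sel1l CKO replicates 1 to 4 had 0.917, 0.876, 1.32 and 1.23 RPKM, with a log2 fold change of -0.59 ± 0.13 (SE, limma adjusted p = 0.0327). The table gives 1 value per gene and none per exon, so the source of the reads left in Sel1l CKO libraries was not tested. Sel1l CKO replicates 3 and 4 kept higher levels than replicates 1 and 2. The library totals behind the RPKM values were about 32900000 to 50400000 reads. DN3 and T lineage markers ranged from Gata3, at 2.42 to 3.08 RPKM over the 8 libraries, to Thy1, at 270 to 310 RPKM. Ptcra spanned 25.8 to 30.5 RPKM over the control libraries. Its Sel1l CKO values were 27.2, 18.8, 17.5 and 20.8 in replicate order, so only replicate 1 reached the control range. The same held for Rag1, which spanned 62.5 to 78.2 RPKM in control, against 77.4, 54.1, 62 and 45.4. Hes1 varied widely, from 23.7 to 90.7 RPKM in control and 11.5 to 31.3 in Sel1l CKO libraries. Il2ra, Tcf7 and Dtx1 reached higher in Sel1l CKO than in control libraries, at up to 23.1, 93.5 and 6.08 RPKM. Cd3e was at 36.3 to 42 RPKM in control and 28.5 to 34.2 in Sel1l CKO libraries. Bcl11b was at 5.97 to 7.81 and 4.31 to 5.74 RPKM, and the groups of the other markers of this lineage overlapped. The 13 markers of this lineage summed to 654 to 760 RPKM in control and 620 to 639 in Sel1l CKO libraries. Of the markers of other cells, the 5 myeloid genes summed to 2.13 to 2.46 RPKM in control and 0.709 to 1.56 in Sel1l CKO libraries, nearly all of it Lyz2, with Csf1r at or below 0.00596 in every library. The 5 thymic epithelial genes summed to 3.1 to 4.88 RPKM in control and 1.95 to 2.27 in Sel1l CKO libraries, nearly all of it Epcam, with Foxn1 at or below 0.00366. Epcam, at 3.04 to 4.87 RPKM in control and 1.79 to 2.23 in Sel1l CKO libraries, was called lower in the limma test described below. It was the only marker of these lists that was called, among those with a mean RPKM of 1 or more. Markers under that mean were not tested, among them all measured B lineage, plasma cell, early progenitor, dendritic, erythroid and natural killer cell markers. The 5 B lineage and the 2 measured plasma cell markers, cells rich in ER chaperones, summed to at most 0.226 and 0.157 RPKM. The sums of the 6 early progenitor and the 2 measured dendritic markers were also lower in Sel1l CKO libraries. They were at 0.473 to 0.52 against 0.286 to 0.465 RPKM and at 0.0178 to 0.0269 against 0.00428 to 0.0105 RPKM. Most of the progenitor sum was Kit, whose groups overlapped at 0.337 to 0.388 and 0.187 to 0.344 RPKM. Cd44 went the other way, at 0.00251 to 0.00763 RPKM in control and 0.00701 to 0.0114 in Sel1l CKO libraries. The 6 later T stage markers summed to 2.46 to 4.41 RPKM in control and 2.76 to 5.45 in Sel1l CKO libraries. The 3 measured erythroid markers summed to 0 to 0.651 and 0.25 to 1.59 RPKM, in that order. Both ranges overlapped between genotypes and reached higher in Sel1l CKO libraries. The 2 measured natural killer cell markers summed to at most 0.0231 RPKM. The part of these marker differences in the results below was not tested.

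Transcripts of the 3 lectins rose in Sel1l CKO thymocytes, that of the glucosyltransferase Uggt1 rose as well but missed the threshold under another scaling, and those of the trimming enzymes did not pass the test in either direction. Values were compared as log2(RPKM + 0.1) with limma over the 6512 genes whose mean RPKM was 1 or more, with Benjamini-Hochberg adjustment and a threshold of an adjusted p of 0.05. Of the 9 genes, 8 passed the filter. Calr, Canx, Mlec and Uggt1 were higher in Sel1l CKO thymocytes, no gene of the cycle was called lower, and Mogs, Ganab, Prkcsh and Man1b1 were not called. Among all genes tested, 5.28% were called in either direction, 4.27% as higher and 1.01% as lower. The median log2 fold change was 0.29 over the 8 genes and 0.01 over all genes tested, whose quartiles were -0.12 and 0.12. In bulk samples, more RNA per cell and more cells of a kind that carries the transcript cannot be told apart.

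**Figure D1:**
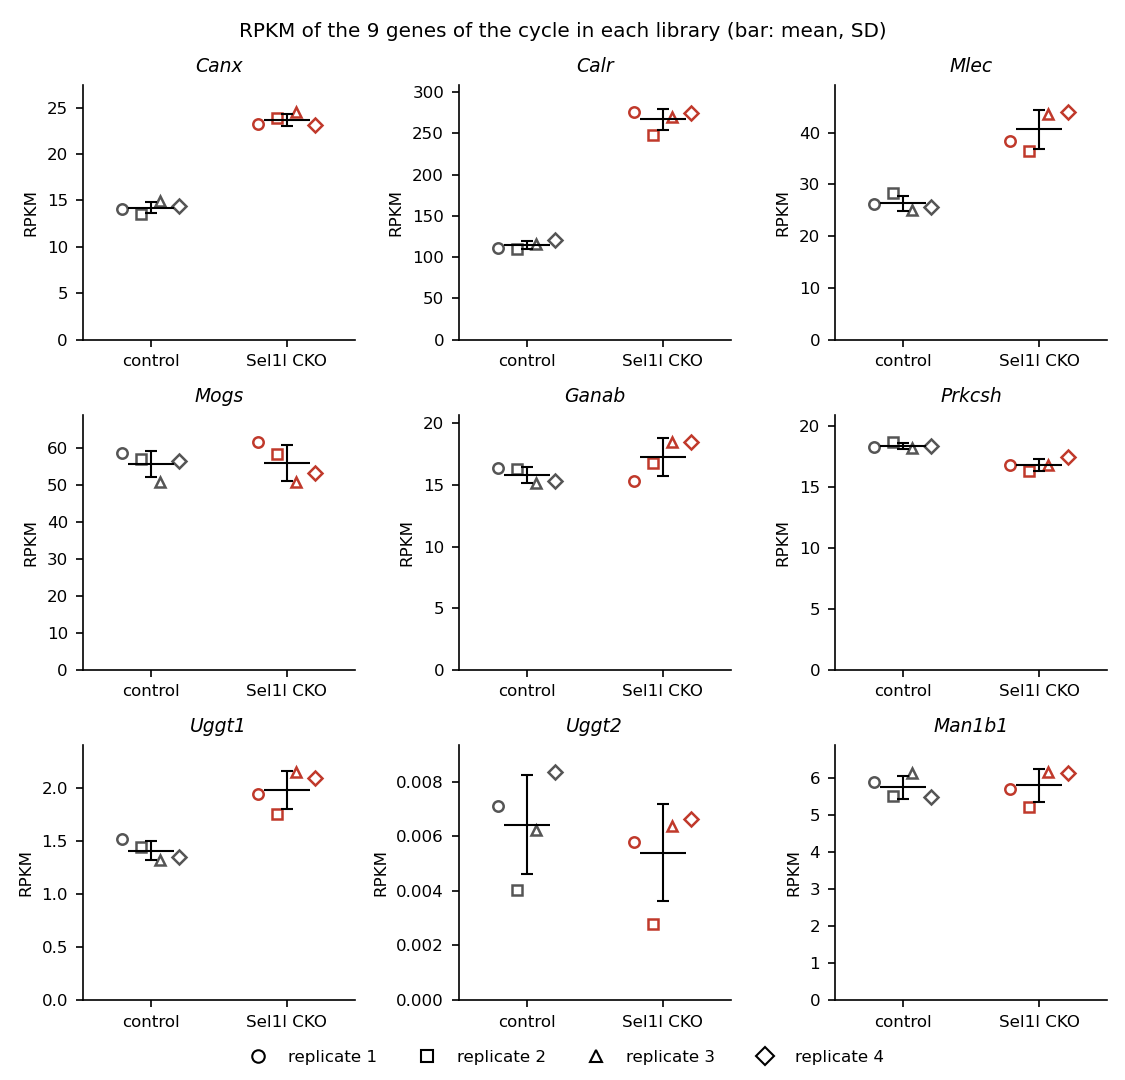
RPKM of the 9 genes in each library, 1 panel a gene with its own axis from 0, control in grey and Sel1l CKO in red, with symbols for replicates 1 to 4 and black bars for the mean and SD. Calr, Canx, Mlec and Uggt1 were higher in all 4 Sel1l CKO libraries than in any control library, Prkcsh was lower in all 4, and the groups overlapped for Mogs, Ganab, Uggt2 and Man1b1.

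Calr encodes calreticulin, the soluble lectin chaperone of the ER lumen (ENSMUSG00000003814.8, chr8:84841850-84846934, minus strand). It measured 110.5, 110.2, 115.5 and 120.8 RPKM across the control libraries, in the order of replicates 1 to 4 as for every gene here, and 276.0, 247.6, 269.7 and 274.1 RPKM across the Sel1l CKO libraries. The lowest Sel1l CKO library was above the highest control library by a wide margin. The mean rose from 114.3 ± 5.01 to 266.8 ± 13.1 RPKM (SD, n = 4 each), 2.34-fold. The log2 fold change was 1.22 ± 0.06 (SE, 95% interval 1.08 to 1.36, limma adjusted p = 5.58e-06), the highest of the cycle and the 46th largest rise of the 6512 genes. Calr alone took 0.0562% to 0.0606% of the recovered reads in control and 0.123% to 0.138% in Sel1l CKO libraries.

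Canx encodes calnexin, the membrane-bound lectin chaperone with the same glycan specificity (ENSMUSG00000020368.15, chr11:50293961-50325673, minus strand). It measured 14.1, 13.5, 14.9 and 14.4 RPKM across the control libraries and 23.2, 23.9, 24.5 and 23.1 RPKM across the Sel1l CKO libraries. Both groups were tight and did not overlap. The mean rose 1.67-fold, from 14.2 ± 0.587 to 23.7 ± 0.668 RPKM (SD, n = 4 each), with a log2 fold change of 0.73 ± 0.06 (SE, 95% interval 0.60 to 0.86, limma adjusted p = 8.53e-05).

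Mlec encodes malectin, an ER membrane lectin that binds glycans with 2 glucose residues, before the calnexin step (ENSMUSG00000048578.11, chr5:115142981-115158179, minus strand). It measured 26.2, 28.3, 25.1 and 25.6 RPKM across the control libraries. Sel1l CKO libraries had 38.4, 36.4, 43.6 and 44.0 RPKM, all above the control libraries, with replicates 3 and 4 the higher pair. The mean rose 1.54-fold, from 26.3 ± 1.39 to 40.6 ± 3.79 RPKM (SD, n = 4 each), with a log2 fold change of 0.62 ± 0.08 (SE, 95% interval 0.44 to 0.80, limma adjusted p = 0.00156).

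Uggt1 encodes the glucosyltransferase that senses unfolded glycoproteins and returns them to the lectin chaperones (ENSMUSG00000037470.14, chr1:36140027-36244720, minus strand). It measured 1.52, 1.44, 1.32 and 1.35 RPKM across the control libraries and 1.94, 1.75, 2.15 and 2.10 RPKM across the Sel1l CKO libraries. The groups did not overlap. The mean rose 1.41-fold, from 1.41 ± 0.0918 to 1.98 ± 0.179 RPKM (SD, n = 4 each), on 4872 to 9229 reads per library. The log2 fold change was 0.46 ± 0.09 (SE, 95% interval 0.27 to 0.66, limma adjusted p = 0.0131), and the adjusted p was 0.0551 when the libraries were rescaled to the same sum.

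Uggt2, the paralog of Uggt1 (ENSMUSG00000042104.18, chr14:118985039-119099430, minus strand), was barely detected and was not part of the limma test. It had 33, 22, 25 and 36 reads in control replicates 1 to 4 and 25, 16, 24 and 25 reads in Sel1l CKO replicates 1 to 4, at 0.00278 to 0.00834 RPKM. The groups overlapped and did not separate (exact permutation test, two-sided p = 0.457 with 70 assignments of the 8 libraries). On the recovered reads, limma voom gave a log2 fold change of -0.33 with a 95% interval from -1.29 to 0.64, an interval that holds both 0 and the log2 fold change of Uggt1, so a difference was not detectable at this depth.

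Mogs encodes glucosidase I, which removes the outermost glucose (ENSMUSG00000030036.8, chr6:83115496-83118898, plus strand). It measured 58.7, 56.9, 50.8 and 56.4 RPKM across the control libraries and 61.6, 58.3, 50.7 and 53.3 RPKM across the Sel1l CKO libraries. The groups spanned nearly the same range. The log2 fold change was 0.01 ± 0.08 (SE, limma adjusted p = 0.979), with a 95% interval from -0.17 to 0.18.

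Ganab and Prkcsh encode the catalytic and the regulatory subunit of glucosidase II, which removes the inner glucose residues (ENSMUSG00000071650.6, chr19:8898071-8916672, and ENSMUSG00000003402.14, chr9:22002806-22014222, both on the plus strand). Ganab measured 16.4, 16.3, 15.2 and 15.3 RPKM across the control libraries and 15.3, 16.8, 18.4 and 18.5 RPKM across the Sel1l CKO libraries. The groups overlapped through Sel1l CKO replicate 1, and replicates 3 and 4 were above every control library. Its log2 fold change was 0.12 ± 0.08 (SE, limma adjusted p = 0.393). Prkcsh measured 18.2, 18.7, 18.2 and 18.4 RPKM across the control libraries and 16.8, 16.3, 16.8 and 17.5 RPKM across the Sel1l CKO libraries. Every Sel1l CKO library was below every control library, by a small margin. The log2 fold change of Prkcsh was -0.13 ± 0.05 (SE, 95% interval -0.25 to -0.01), with an unadjusted p of 0.042 and an adjusted p of 0.221 in limma, so it was not called.

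Man1b1 encodes the ER mannosidase whose trimming directs misfolded glycoproteins to ERAD (ENSMUSG00000036646.13, chr2:25332338-25352212, plus strand). It measured 5.89, 5.51, 6.14 and 5.49 RPKM across the control libraries and 5.72, 5.21, 6.17 and 6.16 RPKM across the Sel1l CKO libraries. The values of the groups were interleaved. The log2 fold change was 0.01 ± 0.08 (SE, limma adjusted p = 0.946), with a 95% interval from -0.16 to 0.18.

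Over the 8 genes tested, the groups did not overlap for 5, where 14.7% of all genes tested had no overlap in either direction. Together the 9 genes took 0.229% to 0.241% of the recovered reads in control and 0.348% to 0.383% in Sel1l CKO libraries.

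Because the second principal component (22.1% of the variance) set Sel1l CKO replicates 3 and 4 apart, the differences are also given for replicates 1 and 2 and for replicates 3 and 4, with 2 libraries of each genotype in each. No label defines these sets as batches, and the control libraries did not divide in the same way, with control replicate 4 on the side of replicates 1 and 2. Calr, Canx, Mlec and Uggt1 were higher in Sel1l CKO libraries in both sets. The log2 difference was 1.24 in replicates 1 and 2 and 1.2 in replicates 3 and 4 for Calr, and 0.77 and 0.70 for Canx. It was 0.46 and 0.79 for Mlec, and 0.29 and 0.63 for Uggt1. Ganab had -0.03 in replicates 1 and 2 and 0.27 in replicates 3 and 4. For Prkcsh the values were -0.16 and -0.09, for Mogs 0.05 and -0.04, and for Man1b1 -0.06 and 0.08. These values have no test, and Sel1l itself differed by -0.89 in replicates 1 and 2 and by -0.30 in replicates 3 and 4. The part of the Sel1l level in these values was not tested.

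**Figure D2:**
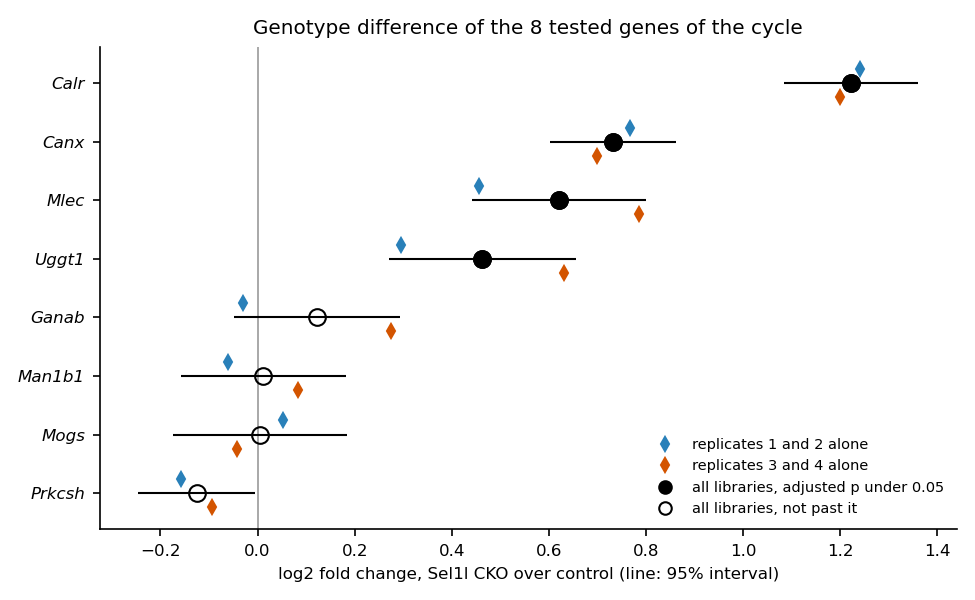
Log2 fold change (Sel1l CKO over control, horizontal axis) of the 8 tested genes, with the 95% interval as a line, filled circles for an adjusted p under 0.05, and diamonds for replicates 1 and 2 (blue) and replicates 3 and 4 (orange) alone. The intervals of Calr, Canx, Mlec and Uggt1 lay above 0 and both library sets gave a rise for each, while the sets gave opposite signs for Ganab, Man1b1 and Mogs.

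To compare levels between genes, RPKM was put on exon length, since the deposited values divide by the whole gene with its introns, which make up 15% of Mogs and 88.8% of Uggt2. This assumes that reads were counted on exons, a setting not given in the sources used here. On this scale, control thymocytes had Calr at 202 ± 8.84, Canx at 96.1 ± 3.97, Mlec at 66.5 ± 3.5, Mogs at 65.5 ± 4.04, Ganab at 53.8 ± 2.18 and Prkcsh at 48.1 ± 0.602 (SD, n = 4). Man1b1 followed at 21.2 ± 1.17, Uggt1 at 11.5 ± 0.748 and Uggt2 at 0.0574 ± 0.0163. Mlec and Mogs overlapped in control libraries, and the other neighbours in this order did not. In Sel1l CKO libraries the order of the means was the same, with Calr at 471 ± 23.2, Canx at 160 ± 4.51, Mlec at 103 ± 9.6 and Mogs at 65.9 ± 5.79 (SD, n = 4). There Mlec stood clear of Mogs, and Mogs overlapped Ganab at 58.8 ± 5.18. The level of Uggt1 was 11.5 in control and 16.1 ± 1.46 in Sel1l CKO libraries on exon length, below Man1b1 at 21.4 ± 1.66 in the latter, so the glucosyltransferase that rose had the lowest level of the 8 tested genes in both genotypes.

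**Figure D3:**
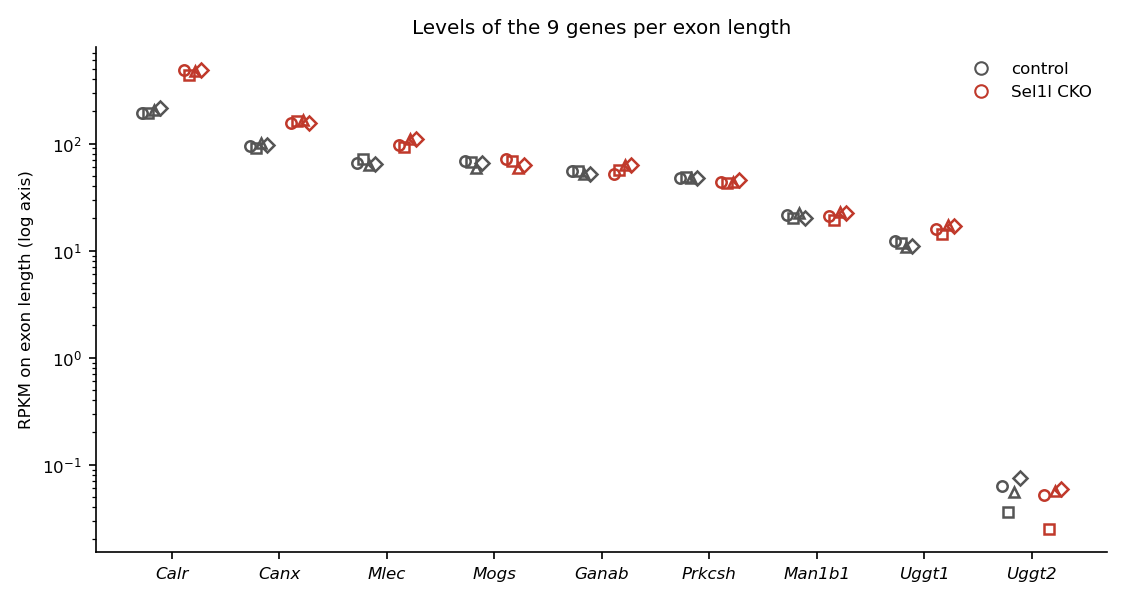
RPKM on exon length (log axis) of the 9 genes in each library, ordered by the control mean, control in grey and Sel1l CKO in red, with circles, squares, triangles and diamonds for replicates 1 to 4. Calr was the highest and Uggt2 the lowest gene in both genotypes, with control means of 202 and 0.0574.

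A factor common to a library cancels in a ratio of 2 of its genes, apart from the pseudocount, and 5 pairs of genes with paired roles were compared in this way. The log2 ratio of Calr to Canx was 2.96, 3.02, 2.94 and 3.06 in control replicates 1 to 4 and 3.57, 3.37, 3.45 and 3.56 in Sel1l CKO replicates 1 to 4. The groups did not overlap, and the ratio was higher by 0.49 ± 0.06 (SE) in Sel1l CKO libraries (exact permutation test, two-sided p = 0.0286, adjusted over the 5 pairs 0.0476, and 0.0714 without a pseudocount). On exon length Calr was at 2.1 ± 0.0806 times Canx in control and 2.95 ± 0.193 times in Sel1l CKO libraries (SD, n = 4).

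For the glucosidase II subunits, the log2 ratio of Ganab to Prkcsh was -0.15, -0.20, -0.26 and -0.26 in control replicates 1 to 4 and -0.13, 0.04, 0.14 and 0.08 in Sel1l CKO replicates 1 to 4. The groups came close at control replicate 1 and Sel1l CKO replicate 1 but did not overlap. The ratio was higher by 0.25 ± 0.06 (SE) in Sel1l CKO libraries (exact permutation test, two-sided p = 0.0286, adjusted 0.0476, and 0.0714 without a pseudocount), although neither subunit alone passed the test across all genes.

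The log2 ratio of Uggt1 to Uggt2 was higher by 0.48 ± 0.07 (SE) with the pseudocount of 0.1 (exact permutation test, two-sided p = 0.0286, adjusted 0.0476). With Uggt2 far below that pseudocount, this value follows Uggt1 alone. Without a pseudocount the ratios were 7.74, 8.49, 7.73 and 7.33 in control replicates 1 to 4 and 8.39, 9.30, 8.40 and 8.30 in Sel1l CKO replicates 1 to 4. The groups then overlapped, and the difference was 0.77 ± 0.34 (SE, exact permutation test, two-sided p = 0.114). A value of 0.0286 is the smallest that 70 assignments allow, so the adjusted p of a pair depends on how many of the 5 pairs reach it, and the adjusted 0.0476 of Calr to Canx and of Ganab to Prkcsh needs this pair to do so.

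The ratios of Mogs to Ganab and of Mlec to Canx overlapped between genotypes. The difference was -0.12 ± 0.13 (SE) for Mogs to Ganab and -0.11 ± 0.10 for Mlec to Canx (exact permutation test, two-sided p = 0.343 and 0.314, both adjusted to 0.343). Sel1l CKO replicates 3 and 4 had the lowest ratios of Mogs to Ganab, at 1.45 and 1.52, against 2 and 1.79 in replicates 1 and 2.

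**Figure D4:**
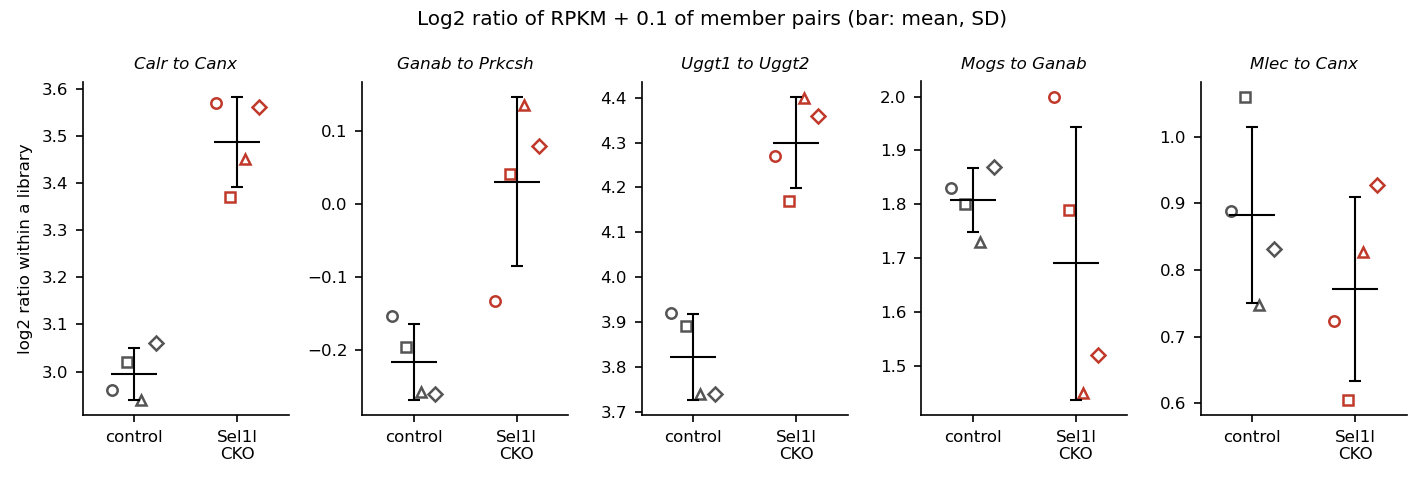
Log2 ratio of RPKM + 0.1 within each library for the 5 pairs, control in grey and Sel1l CKO in red, with circles, squares, triangles and diamonds for replicates 1 to 4 and black bars for the mean and SD, each panel with its own axis. The groups were apart for Calr to Canx, Ganab to Prkcsh and Uggt1 to Uggt2, with differences of 0.49, 0.25 and 0.48, and overlapped for the other pairs.

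Genes that act before, beside and after the cycle were read from the same test, in lists by role. Txndc11 passed the filter on low values only through its Sel1l CKO libraries and is left out of the counts and medians here. Of the 44 other tested genes in these lists, 24 were higher in Sel1l CKO thymocytes and 0 lower, where 4.27% of all genes tested were called higher and 1.01% lower. Of the 44, 35 had a log2 fold change above 0, against 52.6% of all genes tested.

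Of the partners of the lectin chaperones and of the glucosyltransferase, 5 of 6 counted genes were higher, with a median log2 fold change of 0.67. Pdia6, a disulfide isomerase, rose from 11.8 ± 0.369 to 40.5 ± 3.77 RPKM (SD, n = 4; log2 fold change 1.77 ± 0.08, limma adjusted p = 2.74e-06). Pdia3 encodes ERp57, the disulfide isomerase that docks on calnexin and calreticulin, and it measured 16.7, 15.8, 17.2 and 17.3 RPKM across the control libraries and 38.4, 36.6, 37.2 and 40.4 RPKM across the Sel1l CKO libraries. Its groups did not overlap, and the log2 fold change was 1.18 ± 0.06 (SE, limma adjusted p = 5.58e-06). Ppib, the prolyl isomerase cyclophilin B, had a log2 fold change of 0.87 (limma adjusted p = 0.000187). Txndc11, a thioredoxin domain protein, averaged 0.784 ± 0.045 RPKM over the control and 2.06 ± 0.293 RPKM over the Sel1l CKO libraries (SD, n = 4). Erp29 and Selenof, the latter a partner of the glucosyltransferase, were also called higher. Tmx1, a membrane-bound oxidoreductase, was at -0.46 with an adjusted p of 0.1 in limma and was not called.

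All 11 tested genes of the oligosaccharyltransferase, the complex that transfers the glycan to the protein, were higher, with log2 fold changes from 0.29 to 1.07 and a median of 0.62. Ost4 had the smallest of these changes and was just past the threshold (limma adjusted p = 0.0489). A further gene of this list, Tusc3, was under the filter at a control mean of 0.122 RPKM. Rpn1 (ribophorin I) rose from 9.68 ± 0.456 to 20.5 ± 0.854 RPKM (SD, n = 4; log2 fold change 1.07 ± 0.06, limma adjusted p = 1.31e-05). Magt1, a subunit of the form that acts after translation, had 1, Ostc, a subunit of the form bound to the translocon, 0.95 and the catalytic subunit Stt3a 0.77 on the log2 fold change scale (limma adjusted p = 0.000259, 3.32e-05 and 0.000227).

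For assembly of the dolichol-linked glycan before its transfer, of 23 listed genes 16 were tested and 3 were higher, with a median log2 fold change of 0.08 and a range from -0.15 to 0.90. The mannosyltransferases Alg12 and Alg2 had log2 fold changes of 0.90 ± 0.15 and 0.71 ± 0.12 (SE, limma adjusted p = 0.00719 and 0.00782). Dpagt1, which starts the assembly, had 0.62 ± 0.09 (SE, limma adjusted p = 0.00504).

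After the cycle, Edem2, a mannosidase that starts the trimming for ERAD, was the 1 gene called of 3 tested in its list of 8, whose median was 0.22. It was at 2.28 to 2.5 RPKM in control libraries, and Sel1l CKO replicates 1 to 4 had 4.15, 3.88, 5.94 and 6.5 RPKM, with a log2 fold change of 1.04 ± 0.16 (SE, limma adjusted p = 0.0048). Replicates 3 and 4 were the higher pair, as for Mlec. Edem1 and Os9, its list neighbours, had 0.22 and 0.05 and were not called.

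Of the 4 cargo lectins of ER exit, 3 were higher, and the median log2 fold change was 0.73. Lman1 (ERGIC-53) and its partner Mcfd2, which together carry glycoproteins to the Golgi, had log2 fold changes of 0.83 and 0.87, and Lman2 (VIP36) had 0.64 (limma adjusted p = 0.00068, 0.000841 and 0.000361). Lman2l was at -0.28 and was not called (limma adjusted p = 0.0985). Of the later Golgi and cytosolic glycan enzymes, 4 of 7 were tested, and Mgat2, a Golgi N-acetylglucosaminyltransferase, was the 1 called, rising from 24.6 ± 1.84 to 42.2 ± 4 RPKM (SD, n = 4; log2 fold change 0.78 ± 0.09, limma adjusted p = 0.000697). The median of those 4 was -0.22, with Mgat1 at -0.23, Engase at -0.22 and Man2a2 at -0.43, none of them called. The other lectin chaperone genes, Clgn, Calr3 and Calr4, were under the filter, with Calr3 at 0.0339 RPKM in control and 0.0558 in Sel1l CKO libraries and Clgn listed at 0 in all 8.

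**Figure D5:**
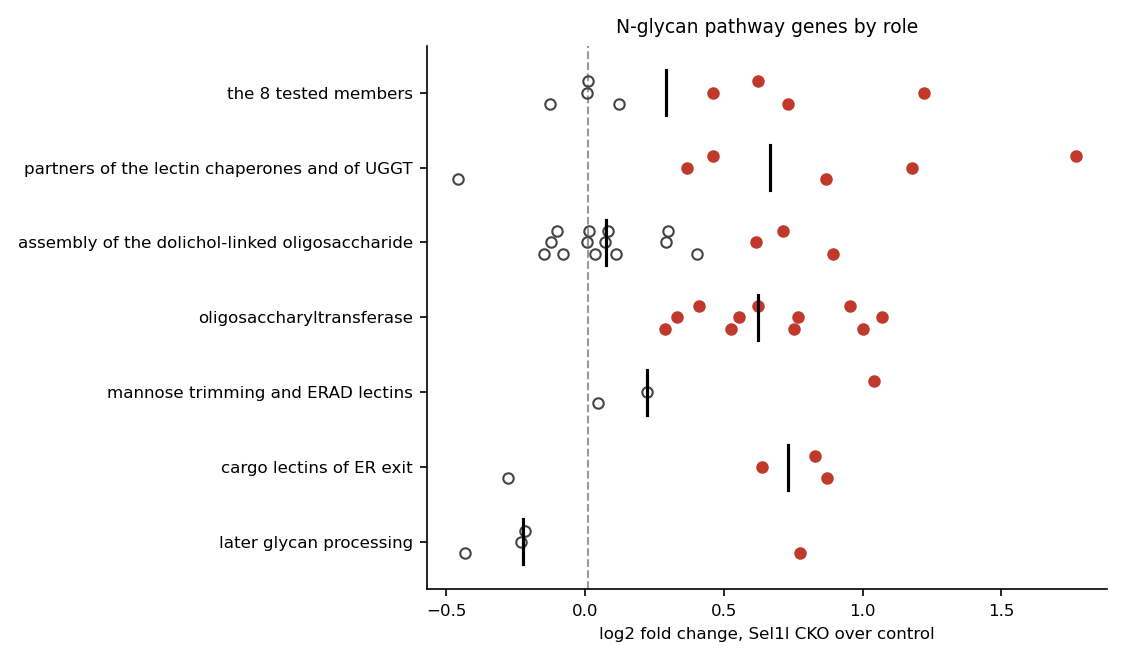
Log2 fold change (Sel1l CKO over control) of the tested genes by role, with red filled circles for an adjusted p under 0.05, open circles for the others, a black bar for the median of each row and a dashed line for the median of all genes tested (0.01). The medians, without Txndc11, were 0.67 for the partners, 0.08 for assembly of the dolichol-linked oligosaccharide, 0.62 for the oligosaccharyltransferase, 0.22 for mannose trimming, 0.73 for the cargo lectins and -0.22 for later glycan processing.

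The genes outside the cycle most like Calr across the 8 libraries were Pdia3, Dnajc3, Sec61b, Dnajb11 and Sec61a1. Likeness was the root mean square difference of log2(RPKM + 0.1) after subtraction of each gene's control mean, and it was 0.0494, 0.0671, 0.0769, 0.102 and 0.104 in that order, against 0.353 for Canx. Dnajc3 and Dnajb11 are ER co-chaperones of BiP, and Sec61b and Sec61a1 are subunits of the translocon. Dnajc3 had a mean of 2.44 RPKM in control and 5.75 in Sel1l CKO libraries, a log2 fold change of 1.2 ± 0.06 (SE, limma adjusted p = 5.58e-06). The log2 fold changes of the others were 1.18 for Pdia3, 1.23 for Sec61b, 1.10 for Dnajb11 and 1.21 for Sec61a1. These genes were picked for their likeness over the same libraries, so the likeness is a description.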

How the data were processed

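Libraries were made with a stranded mRNA kit from sorted DN3 thymocytes and sequenced paired-end. Per the submitters' notes, the authors aligned reads to GRCm38 with STAR (2.5.2b) and counted protein-coding genes with HTSeq (2.7). They deposited RPKM values, 1 column per library. The length and library total used and the strand setting are not given in the sources used here. With GENCODE M21 gene spans, 11778 of 15643 genes (75.3%) gave whole reads throughout (tolerance 0.02 reads), against 3.24% with exon lengths. For 2737 further genes, Ganab and Prkcsh among them, the length was solved from the values. The library totals found this way (about 32900000 to 50400000 reads) were not whole numbers, and recovered reads summed to 99.1% to 103.2% of them. Depth limits Uggt2 most.

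Values were put on the log2(RPKM + 0.1) scale, and genes with a mean of at least 1 were tested with limma (3.58.1, R 4.3.3) with a mean-variance trend, genotype only, two-sided, with Benjamini-Hochberg adjustment. The study's own test was DESeq2 on counts, which are not used here. Ratios used exact permutation tests over the 70 assignments of 8 libraries. Tables and figures were made in Python (3.11.15). The limma procedure was also run on simulated data, with spreads taken from these libraries and the largest spreads capped. The planted changes were larger than that of any gene of the cycle, and no result here rests on that run.

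The members and lists were chosen with earlier results of these data known. Named genes are the 9 members, Sel1l, up to 4 called genes per list with the largest change, and the 5 genes most like the member with the largest change. A few further list genes (Erp29, Selenof, Tmx1, Tusc3, Ost4, Edem1, Os9, Lman2l, Mgat1, Engase, Man2a2, Clgn, Calr3 and Calr4) were named after their values were seen. Alternatives were other pseudocounts, filters and scalings, limma without the trend, with array weights, with voom on recovered reads, with RPKM on exon length, with a replicate block or library-set term, and fits that left out each library. The ratio without a pseudocount and the list counts without genes that passed the filter through 1 genotype alone (Txndc11) were added after seeing the data. None of the 9 genes overlaps another gene of the table.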

Additional observations from a re-analysis of the deposited data

How the results depend on the processing

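Under the 22 alternatives to the limma fit, Calr, Canx and Mlec stayed higher in Sel1l CKO thymocytes and past an adjusted p of 0.05 in limma, with log2 fold changes from 1.18 to 1.26, 0.67 to 0.76 and 0.57 to 0.70. The number of called genes of the cycle was 4, and 3 under 3 alternatives, all through Uggt1. Its adjusted p was 0.0551 with libraries rescaled to the same sum and 0.0505 with a replicate block, and it was not tested with a mean RPKM of at least 5. Of the pathway genes, 25 were called with Txndc11 counted. The number was 17 with a mean RPKM of at least 5, a filter that tests fewer genes, and 23 to 28 under the other alternatives. In fits without 1 library each, 4 genes of the cycle and 24 to 27 pathway genes were called, with Uggt1 closest to the threshold (adjusted p up to 0.0488, log2 fold change 0.42 to 0.52).

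Mogs and Man1b1, neither called under any alternative, changed sign around 0. Mogs was at -0.0543 with quantile normalization, -0.1 with array weights and -0.00507 with voom, and from -0.0425 to 0.0514 without 1 library each. Man1b1 was at -0.0215 with quantile normalization, -0.00105 with voom, and from -0.0166 to 0.0626 without 1 library each. Without a pseudocount, the ratio differences were 0.487 for Calr to Canx, 0.249 for Ganab to Prkcsh and 0.772 for Uggt1 to Uggt2, and none passed an adjusted p of 0.05 (0.0714, 0.0714 and 0.19). Without 1 library each, they were 0.464 to 0.53, 0.213 to 0.302 and 0.443 to 0.52 with the pseudocount of 0.1, with no test, since the exact permutation test of 4 against 3 libraries cannot go below a two-sided p of 0.0571.

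The replicate numbers were not taken to pair the libraries, because same-numbered libraries correlated with r from 0.00514 to 0.445 and 1 of the 4 Sel1l CKO libraries correlated best with the control of its own number. With the replicate block, 317 genes were called, against 344 without it, and 3 genes of the cycle and 23 pathway genes were among them. The values are RPKM on gene spans, and the median log2 fold change of all genes moved by less than 0.1 under every scaling. The depth leaves Uggt2 at 16 to 36 reads a library.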
